A study of Mus musculus with 2 samples.

Results

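Mir451a, Mir144 and Mir486 are the microRNA genes best known from red blood cells, and they are described here in the small RNA of newborn mouse hearts. They were chosen by name, not by level, but with earlier results of these data known, and are 3 of the 1973 microRNA genes counted. The hearts came from B6NCrl pups at postnatal day 0, with no treatment named in the labels, and each of 2 hearts gave 1 library of total RNA with a size range under 30 nt. Replicate 1 was the heart of pup 1 and replicate 2 the heart of pup 3, so the data hold 1 group and no second condition. Sense-strand gene counts were 6373797 and 7630427, and 3 counts, the level that a count of 0 allows, were 0.471 and 0.393 CPM (a count divided by the sense total of its library, times 1000000). The heart muscle microRNAs Mir208a, Mir208b and Mir499, which lie in myosin genes, were all present, at 4847 to 108150 CPM.

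In developing red cells, Mir144 and Mir451a are transcribed together as a single primary transcript under the control of GATA1, and both build up as the cells mature. Mir451a is not cut by Dicer but by Argonaute 2, and its mature microRNA runs into the loop. miR-451 restrains Ywhaz, and miR-144 restrains Nfe2l2, a factor of the oxidative stress response. Mir486 lies in the ankyrin gene Ank1, whose protein ties spectrin to the red cell membrane, but it is also made in heart and skeletal muscle. A whole heart holds blood in its chambers and vessels as well as its own muscle. In bulk tissue, fewer cells of a type and less RNA per cell cannot be told apart.

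RefSeq sequences (build GRCm38.p6) were matched for 2 of the 3 genes, Mir451a and Mir144. Mir486 had no entry. The mature microRNAs are shown because the seed, bases 2 to 8, in capitals here, selects the targets. Mir451b, annotated on the strand opposite Mir451a, is included because the opposite-strand counts bear on it.
mmu-miR-451a: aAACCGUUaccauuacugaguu
mmu-miR-144-5p: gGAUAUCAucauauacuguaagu
mmu-miR-144-3p: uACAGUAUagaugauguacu
mmu-miR-451b: uGGGAGCAgcaagagaaccgu
No 2 of these share a seed, and none of the 4 seeds occurs in another of the 1738 mature mouse microRNAs in the table. With bases 2 to 7 alone, miR-144-3p matched 1 other, miR-101a-3p, shown for that match with bases 2 to 8 in capitals.
mmu-miR-101a-3p: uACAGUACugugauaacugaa
The gene of that microRNA, Mir101a, stood at 240 CPM in replicate 1 and 223 CPM in replicate 2, above Mir144 in both, although Mir101a shares 20 bases with another precursor and its count is uncertain. The deposited counts are per gene and do not separate the 5p and 3p arms, so the Mir144 count covers both of its mature products.

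The hairpins are shown 5′ to 3′ with the mature sequences in capitals, because they differ in where the mature RNA lies.
Mir144: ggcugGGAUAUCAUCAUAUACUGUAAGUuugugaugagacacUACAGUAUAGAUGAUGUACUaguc
Mir451a: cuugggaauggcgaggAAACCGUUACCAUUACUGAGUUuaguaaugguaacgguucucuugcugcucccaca
The Mir144 hairpin has 66 bases and holds a mature sequence on each arm, at bases 6 to 28 and 43 to 62. RNAfold placed its terminal loop at bases 31 to 36, outside both. The Mir451a hairpin has 72 bases and a single mature sequence, at bases 17 to 38, and its predicted loop is at bases 35 to 38. The last 4 bases of miR-451a thus fall in the predicted loop, and 0 bases of either Mir144 product do.

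Both genes lie on the plus strand of chromosome 11 (mm10), Mir144 (ENSMUSG00000065401.1) at chr11:78073005-78073070 and Mir451a (ENSMUSG00000070065.1) at chr11:78073170-78073241. The gap between them is 99 bases, and GENCODE M21 places neither inside another gene on its own strand. Mir486 (ENSMUSG00000070084.3) is at chr8:23142555-23142682 on the plus strand, in an intron of Ank1. On the opposite strand GENCODE M21 has Mir451b over the same bases as Mir451a, and Mir3107 at chr8:23142573-23142662 inside the Mir486 interval. Mir486 also lies opposite an intron of the antisense gene Gm15816. None of Mir451b, Mir3107 and Gm15816 has a row of its own among the genes counted.

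Mir451a was the most abundant of the 3 in each heart. It had 5933 counts, or 931 CPM (exact Clopper-Pearson 95% interval 907 to 955), in replicate 1 and 9439 counts, or 1237 CPM (1212 to 1262), in replicate 2. The mean was 1084 ± 217 CPM (SD, n = 2), which ranked it number 71 of the 1973 genes by sense counts. Ranks here leave out opposite-strand counts, which were higher at some loci (424423 and 513236 at Gm25301), and reads that matched several places. The higher value was in replicate 2, and the intervals of the 2 libraries did not overlap. Intervals cover counting error only.

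Mir144 lay far lower and was higher in the other heart. It had 713 counts, or 112 CPM (104 to 120), in replicate 1 and 543 counts, or 71.2 CPM (65.3 to 77.4), in replicate 2. The mean was 91.5 ± 28.8 CPM (SD, n = 2). Its rank was 149 in replicate 1 and 177 in replicate 2, and here too the intervals did not overlap.

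Mir486 had nearly the same level in both hearts. It had 454 counts, or 71.2 CPM (64.8 to 78.1), in replicate 1 and 544 counts, or 71.3 CPM (65.4 to 77.5), in replicate 2. Each interval held the other library's value. The 3 genes together took 1114 CPM in replicate 1 and 1379 CPM in replicate 2, or 1247 ± 188 CPM (SD, n = 2).

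**Figure D1:**
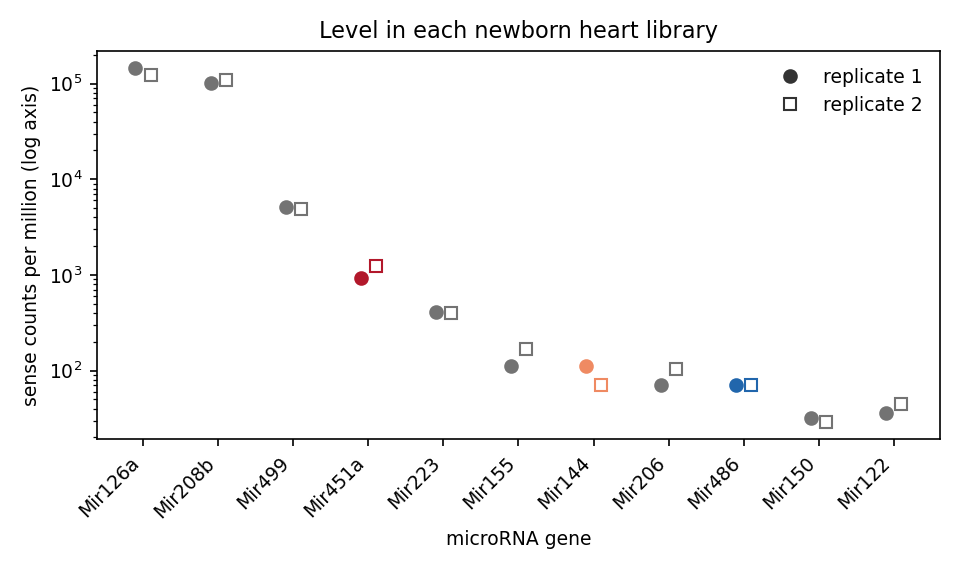
Sense CPM on a log axis for Mir451a, Mir144 and Mir486 (coloured) and 8 marker genes of other cell types (grey), with a filled circle for replicate 1 and an open square for replicate 2. Mir451a, at 931 and 1237 CPM, lies above the leukocyte gene Mir223, and Mir144 and Mir486 lie near the skeletal muscle gene Mir206, at 71.2 and 104 CPM.

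Within a library, Mir451a exceeded both of the others, and the order of the lower 2 was not fixed. Mir451a was 8.32 times Mir144 in replicate 1 (95% interval 7.70 to 9.01) and 17.4 times in replicate 2 (15.9 to 19.0). It was 13.1 times Mir486 in replicate 1 (11.9 to 14.4) and 17.4 times in replicate 2 (15.9 to 19.0). Mir144 was 1.57 times Mir486 in replicate 1 (1.39 to 1.77) and 0.998 times in replicate 2 (0.885 to 1.13). Of the 6 exact binomial tests against 1 to 1 (2-sided, Benjamini-Hochberg adjusted), 5 passed the threshold of 0.05. Mir144 against Mir486 had an adjusted p of 4.05e-14 in replicate 1 and 1 in replicate 2 in these exact binomial tests, so only in replicate 1 did those neighbours in the order differ beyond counting error. A microRNA is read whole, so a count needs no division by length, but how well each sequence is captured in a library is not removed from such ratios.

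The make-up of the 3 genes therefore differed between the hearts. Mir451a held 83.6% of their summed counts in replicate 1 (95% interval 82.7 to 84.4) and 89.7% in replicate 2 (89.1 to 90.2). Mir144 held 10.04% (9.35 to 10.8) and 5.16% (4.74 to 5.60). Mir486 held 6.39% (5.84 to 6.99) and 5.17% (4.75 to 5.61). The Mir144 share moved most in proportion, and the intervals of the Mir486 shares did not overlap either, although its CPM was nearly equal.

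The hearts were compared gene by gene by a 2-sided exact binomial test that sets each count against its library total, with Benjamini-Hochberg adjustment over all 435 genes with 10 or more counts. Of these genes 31.0% passed, 19.1% higher in replicate 2 and 12.0% higher in replicate 1. Mir451a was among the former, with a log2 ratio of replicate 2 over replicate 1 of 0.41 (95% interval 0.36 to 0.46, exact binomial adjusted p = 7.14e-66). Mir144 was among the latter, with a log2 ratio of -0.65 (-0.82 to -0.49, exact binomial adjusted p = 1.43e-14). Mir486 did not pass, with a log2 ratio of 0.00 (-0.18 to 0.18, exact binomial adjusted p = 1). The 3 members thus gave 1 call in each direction and 1 gene short of the threshold, beside a median log2 ratio of 0.02 over all genes tested and 0.00 over the 3.

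Among the 236 genes with 100 or more counts in each library, the median size of the log2 ratio was 0.14. By size, Mir144 came number 3 after Mir181b-2 and Mir362, which were both higher in replicate 2. Mir451a came number 25 and Mir486 number 235. The test compares 2 libraries and counts sampling noise only, and since each heart gave 1 library, animal and library preparation cannot be told apart here. When edgeR's exact test was given a biological coefficient of variation of 0.1 in advance, neither Mir451a (adjusted p = 0.717) nor Mir144 (adjusted p = 0.347) passed.

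**Figure D2:**
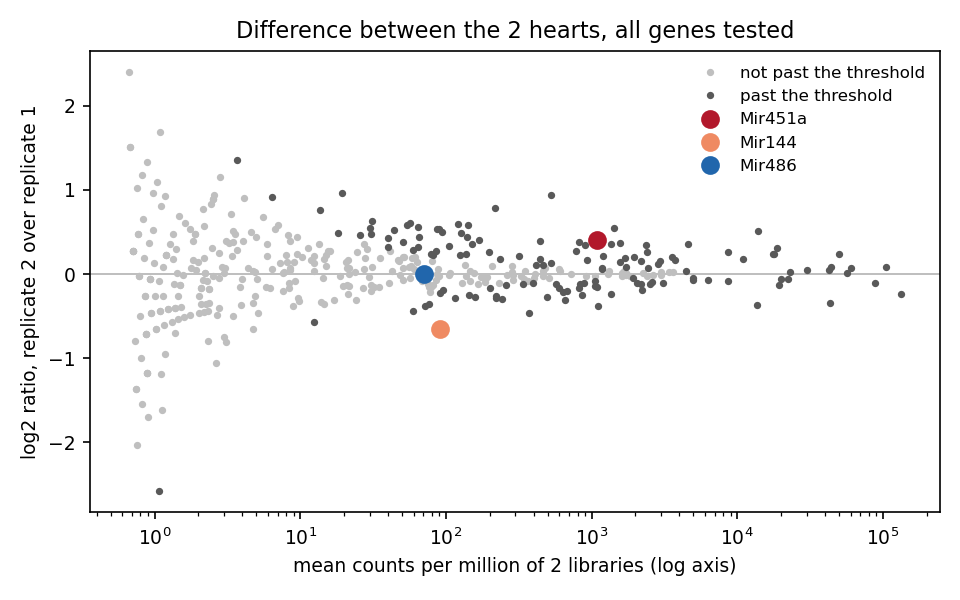
Log2 ratio of replicate 2 over replicate 1 against mean CPM (log axis) for the 435 genes tested, each point a gene, dark where it passed the exact binomial test. Mir144 at -0.65 lies below, and Mir451a at 0.41 above, the bulk of genes at their levels, and Mir486 sits on the line of no difference.

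Because Mir144 and Mir451a are neighbours on 1 strand, their ratio was set beside that of other neighbours. All adjacent microRNA genes on 1 strand with starts at most 10000 bases apart and 10 or more counts each in each library were taken, which gave 109 pairs. The ratio within each pair was compared between the hearts with a 2-sided Fisher's exact test, adjusted over the pairs, and 39.4% of pairs passed. The log2 ratio of Mir451a to Mir144 was 3.06 in replicate 1 and 4.12 in replicate 2, a change of 1.06 or 2.09-fold (Fisher's exact test, adjusted p = 9.96e-35). Over all pairs the median size of the change was 0.24, and 90% of pairs were at or below 0.54.

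By size of change the pair of Mir451a and Mir144 came number 2 of 109. Ahead of it stood Mir181a-1 with Mir181b-1, at -1.19, a pair in which the lower gene had 28 and 64 counts. Behind it came Mir669c with Mir466n at 1.01, which did not pass, Mir181b-2 with Mir181a-2 at 0.98, and Mir294 with Mir293 at -0.95, which did not pass either. The 2 Mir181 pairs and the pair of Mir669c and Mir466n share 20 bases with other precursors, so their counts are uncertain. Among the 63 pairs with no such sharing, and among the 80 pairs with 100 or more counts for each gene, the change at Mir451a and Mir144 was number 1. Of those 80 pairs of greater depth 47, or 58.8%, passed, so a call at this depth was common. The test counts sampling noise only and was not run with a preset spread. In 19 of the 109 pairs both genes differed between the hearts, and in 11 of those 19, this pair included, they differed in opposite directions.

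**Figure D3:**
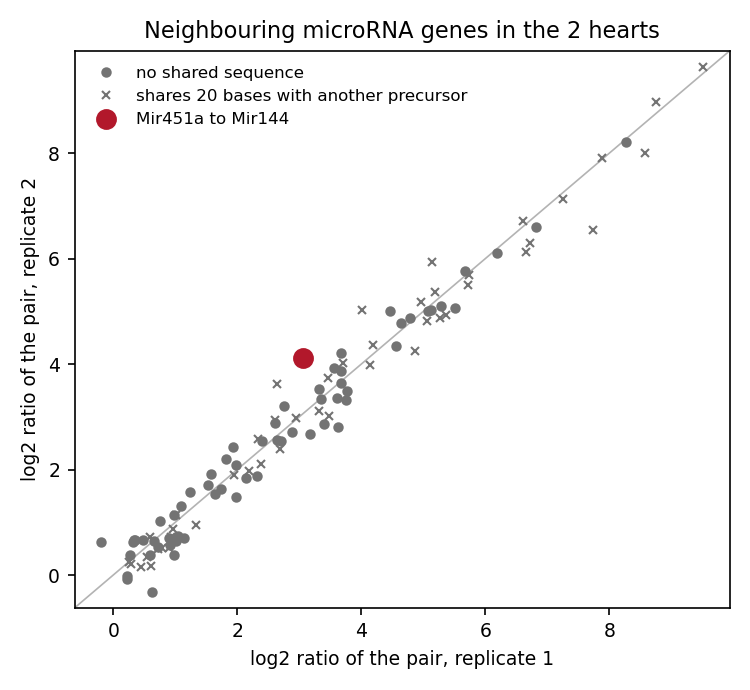
Log2 ratio of the 2 genes of each neighbour pair in replicate 1 (horizontal) and replicate 2 (vertical), with the more abundant gene on top of the ratio and the line of equal ratios drawn. Crosses mark pairs that share 20 bases with another precursor, and Mir451a to Mir144, at 3.06 and 4.12, lies well above the line.

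The level of the ratio was less unusual than its change. With a mean log2 ratio of 3.59 ± 0.75 (SD, n = 2), Mir451a and Mir144 were less unequal than 40 of the 109 pairs. Their starts lie 165 bases apart, against a median of 671 bases, and 21 pairs, this one included, were as close or closer.

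The opposite-strand counts differed between the 2 loci. Mir451a had 0 counts on the opposite strand in replicate 1 and 1 in replicate 2, so Mir451b was at or under the level of 3 counts in both hearts. Mir144 had 0 in both. Mir486 had 26 of 480 counts on the opposite strand in replicate 1, or 5.42% (95% interval 3.57 to 7.84), and 37 of 581 in replicate 2, or 6.37% (4.52 to 8.67). These lie at the locus where Mir3107 is annotated, within an intron of Gm15816 on the same strand. Which of these they came from was not tested.

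Such a share is uncommon in these libraries. Of 286 genes with 100 or more counts on both strands together, 242 had 0 opposite-strand counts, 12 had 50% or more, and 6 lay from 1% to under 50%. Mir486, at 5.94% over both libraries, was among those 6, with Mir200a at 6.56%, Mir122 at 4.22%, Mir203 at 2.48%, Mir1a-1 at 1.60% and Mir182 at 1.15%.

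**Figure D4:**
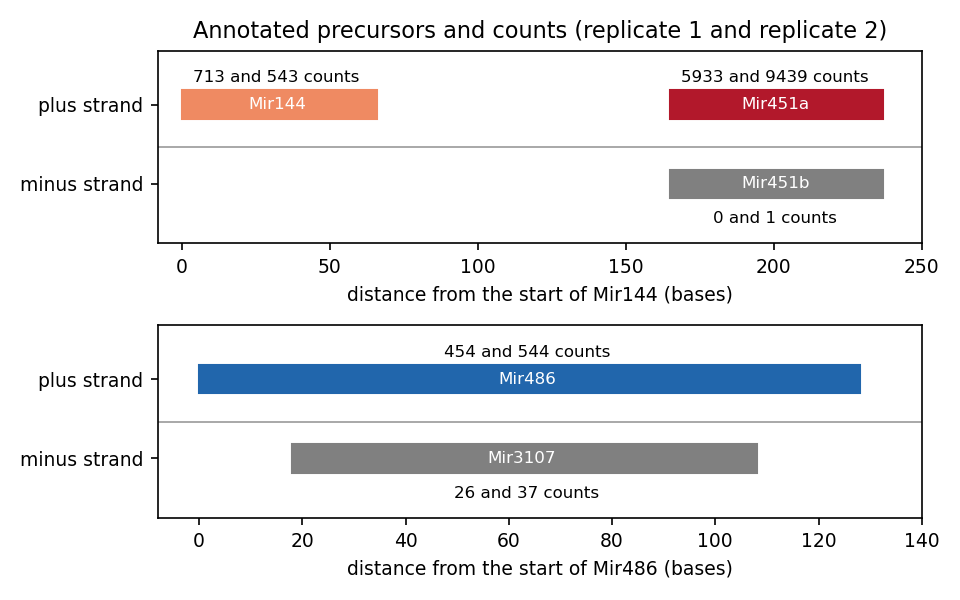
Annotated precursors at the Mir144 and Mir451a locus (top) and the Mir486 locus (bottom) by strand, drawn to scale in bases from the start of Mir144 or Mir486, with the counts of replicate 1 and replicate 2 beside each. The strand opposite Mir451a holds 0 and 1 counts, and the strand opposite Mir486 holds 26 and 37.

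The Mir486 precursor also stands apart in its sequence. No member shares 20 bases with a precursor elsewhere in the genome, whereas 80 of the 358 genes with 10 or more counts in both libraries do. Within the 128 bases of the annotated Mir486 precursor, however, 2 stretches of 22 bases, at bases 33 to 54 and 73 to 94, are exact reverse complements of sequence in the same precursor. A read lying wholly inside either stretch matches both strands of the locus. Of the 358 genes only Mir486 and Mir374b have a stretch of 20 or more such bases, and Mir451a and Mir144 have none. Reads that matched several places, 35.9% and 34.6% of all reads, were listed apart from the genes, and how many of them came from Mir486 was not tested. The Mir486 counts are therefore uncertain and can be too low, and the ratios to Mir486 above and below carry the same limit.

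Other blood microRNAs were read from a list of 6 leukocyte genes, of which 4 were found under the symbol listed. The listed Mir146a goes by Mir146 among the genes counted, with a mean of 80.4 CPM. With a log2 ratio of 0.15 it was short of the threshold, and it is left out of the tallies and sums below. Mir223, a myeloid microRNA, had 409 CPM in replicate 1 and 396 CPM in replicate 2, and did not differ past the threshold. Mir451a was 2.27 times Mir223 in replicate 1 and 3.12 times in replicate 2. Mir155, of activated lymphocytes and macrophages, had 113 and 169 CPM and was higher in replicate 2, with a log2 ratio of 0.58 (exact binomial adjusted p = 1.74e-17). Mir150, of mature lymphocytes, had 32.2 and 29.4 CPM and did not pass. Mir142b had 0 sense counts, but 4043 and 3958 counts on its opposite strand, where Mir142, a general leukocyte microRNA, is annotated. On the sense totals these were 634 CPM in replicate 1 and 519 CPM in replicate 2, lower in replicate 2 and above each sense-strand gene of the list, and this difference was not tested. On the sense strand alone the 4 genes found took 554 CPM in replicate 1 and 595 CPM in replicate 2. Of the 3 of them that were tested, 1 was higher in replicate 2, 0 were higher in replicate 1 and 2 were short of the threshold. Over all genes tested 31.0% passed, so 1 of 3 is near that share. With the counts opposite Mir142b added, a choice made after seeing the data, the sums were 1189 and 1113 CPM, so the heart with the higher sum changed.

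Because Mir486 is also a muscle microRNA, it was set beside muscle genes. Mir206, of skeletal muscle, had 454 counts in replicate 1, the same number as Mir486, and 790 in replicate 2, where Mir486 was 0.689 times as abundant. Mir206 differed between the hearts, with a log2 ratio of 0.54 (exact binomial adjusted p = 8.86e-10), and Mir486 did not pass. Mir499, in the myosin gene Myh7b, was 71.7 times Mir486 in replicate 1 and 68.0 times in replicate 2. Of the heart muscle list, 6 of 7 genes were counted, of which 1 was higher in replicate 2, 2 were higher in replicate 1 and 3 did not pass. Over all genes tested, 19.1% were higher in replicate 2 and 12.0% higher in replicate 1. The 3 that passed had 32547 or more counts in each library, a depth at which the test detects smaller ratios. The summed level of the list was 122267 and 125003 CPM. The 3 that did not pass, Mir1a-1, Mir133a-1 and Mir133a-2, had 14 to 73 counts and share 20 bases with other precursors, so their counts are uncertain and nearly all of the sum came from the myosin genes. The hepatocyte gene Mir122 had 35.8 and 44.6 CPM. The endothelial genes Mir126a and Mir139 summed to 146855 and 125176 CPM, the smooth muscle genes Mir143 and Mir145a to 94054 and 87684 CPM, and Mir206 with Mir133b to 76.7 and 110 CPM. What part blood cells, muscle or other cells had in the levels of the 3 genes was not tested.

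A list of 28 microRNAs linked to erythroid differentiation or found in red cells, the 3 genes left out, had 25 genes found under the symbol listed. Of these, 9 have sequence shared with other precursors. The listed Mir146a, counted as Mir146 and short of the threshold, is again left out. Of the 25, 10 were higher in replicate 2, 7 were higher in replicate 1 and 8 did not pass. Of the 25, 19 had 1000 or more counts in both libraries, where the test detects smaller ratios. Of the 275 genes with 100 or more counts in all 135 passed, but that set reaches to lower depth than most of the list. The share among all genes with 1000 or more counts in both libraries was not taken, so the list's calls have no background of like depth. The list's median log2 ratio was 0.05, beside 0.02 for all genes tested. Mir221, which restrains the stem cell factor receptor Kit and falls as red cells mature, had 77.0 and 93.4 CPM and was higher in replicate 2, with a log2 ratio of 0.28 (exact binomial adjusted p = 0.00372). Its neighbour Mir222, with the same target, had 55.4 and 59.0 CPM and did not pass. Mir210, induced by low oxygen, had 1106 and 1003 CPM, above Mir451a in replicate 1 and below it in replicate 2, and was higher in replicate 1 past the threshold, with a log2 ratio of -0.14 (exact binomial adjusted p = 2.25e-08). Mir15a, a partner of Mir16 that represses Myb, had 3020 and 2992 CPM and did not pass. Mir320, found in mature red cells, had 705 and 856 CPM and was higher in replicate 2.

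Genes nearest to each member in level over the 2 libraries were found by the distance between log2(CPM + 1) values. Over only 2 libraries this measures likeness of level, with little on pattern. The test between the hearts uses the same 2 values per gene. Genes near a member therefore tend to share its ratio by the way they were picked, and their calls below are no separate result. Nearest to Mir451a were Mir28a, Mir92-1 and Mir450b, at distances of 0.27 to 0.31. Nearest to Mir144 were Mir345, Mir496a and Mir33, at 0.30 to 0.38, all 3 higher in replicate 1 past the threshold but with smaller log2 ratios, -0.19 to -0.35. Nearest to Mir486 were Mir5099, Mir331 and Mir376c, at 0.06 to 0.13, none past the threshold.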

How the data were processed

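MicroRNA sequencing of 2 newborn hearts (1 group, 1 library per heart) was deposited as whole-number counts per gene with no normalization. The authors' accompanying notes name build mm10, GENCODE M4 and 1 alignment file per table. Aligner, counter, versions and read trimming were not given in the sources used here. The tables have 3 unnamed columns of counts. The first equals the sum of the others in every gene row, and the second, with 92.9% and 92.8% of gene counts, was taken as the strand of the gene. That reading comes from the values.

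Totals leave out rows without a gene. Of all reads, 12.6% and 15.5% were unmapped, 35.9% and 34.6% matched several places, and 1.93% and 2.28% fell in no gene. Gene totals of 6373797 and 7630427 gave the CPM (per 1000000). Names and positions came from GENCODE M21 on the same build, which matched 1894 of 1973 identifiers. Sequence sharing was sought as exact runs of 20 bases between annotated precursors that do not overlap, and hairpins were folded with RNAfold (ViennaRNA 2.7.2).

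With 1 group, tests compare the 2 libraries: exact binomial tests per gene (10 or more counts, 0.5 added counts in log2 ratios), exact binomial tests of the 3 ratios in each library, and Fisher's exact tests of neighbour pairs, adjusted by Benjamini-Hochberg, threshold 0.05. The tests were tested on simulated counts that held sampling noise only. With no spread between animals in those counts, they could not show how the tests behave under such spread. Alternatives were other scalings (TMM, DESeq2 size factors, all reads, without the most abundant gene), both strands, other count minimums, added counts and distances, each library alone, leaving out pairs with shared sequence, counts opposite Mir142b added to the leukocyte sum (chosen after seeing the data), and the edgeR exact test with a preset spread. Named genes were the 3 members, microRNAs annotated opposite them, the 3 genes nearest in level, up to 3 neighbour pairs on each side in order of change, and the genes of the marker and erythroid differentiation lists. Genes named by opposite-strand share or by order of log2 ratio, and Mir101a and Mir374b, were picked after their values were seen. The members and lists were chosen with earlier results of these data known. Versions were SciPy 1.17.1, edgeR 4.0.16, DESeq2 1.42.0 (for size factors alone), R 4.3.3, Python 3.11.15, pandas 2.3.3, NumPy 2.4.6 and matplotlib 3.10.9.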

Additional observations from a re-analysis of the deposited data

Results flagged for a closer look

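Opposite-strand counts, which the comparisons of levels do not use, were above the level of 3 counts at Mir486, with 26 in replicate 1 and 37 in replicate 2. There are no control samples to set them against. At Mir451a and Mir144 the opposite strand held at most 1 count in either library.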

How the results depend on the processing

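Mir451a stayed higher in replicate 2 and Mir144 higher in replicate 1 under all 10 alternatives, with log2 ratios of 0.35 to 0.41 and -0.71 to -0.65. Both passed under 8 of them. The count minimums of 1 and 100 leave these ratios as they were, and 5 added counts and the edgeR test keep the same library totals. Those alternatives could hardly change the direction. With the count minimums and the 5 added counts, the unadjusted p of both genes was that of the main test. Passing there could hardly change either and adds little to the 8. When edgeR's exact test was given a biological coefficient of variation of 0.1 in advance, the log2 ratio was 0.41 (adjusted p = 0.717) for Mir451a and -0.65 (adjusted p = 0.347) for Mir144, and at 0.2 it was 0.41 and -0.65 (adjusted p = 1 for both), so neither passed. At 0.1 the edgeR exact test called 1 gene, 1 higher in replicate 2 and 0 higher in replicate 1 (29 at an unadjusted p under 0.05), and at 0.2 it called 0 (4 unadjusted), against 135 by the exact binomial test. Mir486 was short of the threshold throughout, and its log2 ratio changed sign to -0.012 with TMM factors, -0.015 with DESeq2 size factors, -0.057 with the total of all reads, -0.035 without the most abundant gene and -0.0013 with 5 added counts. Of the calls over all genes, 61.5% were higher in replicate 2, and 45.8% were with the total of all reads and 51.5% without the most abundant gene. With the total of all reads Mir451a was at 487 CPM, Mir144 at 41.5 and Mir486 at 32.1. Mir486 was at 82.2 CPM without the most abundant gene and 70.3 with both strands. With each library alone Mir451a was at 931 to 1237 CPM, Mir144 at 71.2 to 112 and Mir486 at 71.2 to 71.3. It gave log2 ratios of 3.06 to 4.12 for Mir451a to Mir144, 3.71 to 4.12 for Mir451a to Mir486, and -0.0027 to 0.65 for Mir144 to Mir486, the last changing sign in replicate 2. The change in the ratio of Mir451a to Mir144 was 1.06 under its 4 alternatives, but 3 of them alter only the other pairs tested and both strands adds 1 count, so they could hardly move it. Without pairs that share 20 bases, 24 of 63 neighbour pairs passed, against 43 of 109, as fewer pairs were tested, and with 100 or more counts each 47 of 80 did. No paired analysis was possible because the labels give 1 group. A comparison of 2 libraries gives no value without either.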
